A study of Homo sapiens with 6 samples.

Results

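The forkhead transcription factors FOXO1, FOXO3 and FOXO4 and 7 genes known as their targets or pathway partners were followed in HT-1080 cells given the G quadruplex ligand PhenDC3. Rows of the deposited results table were taken where the symbol matched 1 of these 10 names, and all 10 were found among 22925 rows. HT-1080 is an established human fibrosarcoma cell line, and PhenDC3 is a synthetic ligand of G quadruplexes, stacked folds of nucleic acids rich in guanine. Of the 6 libraries of poly(A) RNA, 3 came from cells kept 48 h with 20 μM PhenDC3 in 1% DMSO, and 3 from cells kept 48 h with 1% DMSO alone. The control cells thus received the solvent too, and the design holds 1 cell line, 1 dose and 1 time. The labels do not say whether replicates came from separate cultures, so the spread between libraries may be technical.

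FOXO factors switch on genes of growth arrest, stress resistance, autophagy and protein breakdown when growth factor signalling is low. Insulin and related hormones act through the receptor INSR and the adaptor IRS2 on PI3 kinase and then on the kinase AKT, which phosphorylates FOXO proteins and keeps them in the cytoplasm, bound to 14-3-3 proteins. FOXO activity is therefore set largely after transcription, which RNA counts do not measure. FBXO32, also called atrogin-1, is the substrate receptor of a ubiquitin ligase and is best known as a FOXO target in wasting muscle.

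Values are the authors' gene counts after scaling each library by its size factor, called normalized counts below. The reads recovered from them came to 12574952 to 14292987 per DMSO library and 7371056 to 9386691 per PhenDC3 library. Mitochondrial genes took 3.72% to 3.96% of the reads in DMSO libraries and 15.4% to 15.5% in PhenDC3 libraries, so this share separated the groups completely. With library totals taken without those genes, the same 9 of the 10 genes as below were called. DMSO replicate 3 stood apart from the other DMSO libraries, as the chi-square statistic of its counts against theirs, divided by the degrees of freedom, was 7.12 and 7.75, where other pairs within a group gave 1.45 to 2.68. It also held muscle transcripts, with 33 reads of CKM and 21 of DES against at most 1 of either in the other DMSO libraries. As FBXO32 is abundant in muscle, the changes of the tested genes among the 10 are also given without that library, and the part of muscle RNA in other values was not tested. Of 8 mesenchymal markers, VIM, FN1, SPARC and CD44 were abundant in all 6 libraries but fell with PhenDC3, VIM from 25153 to 13620 normalized counts (limma, adjusted p = 2.82e-10). COL1A1 rose, TGFBI did not pass, and COL1A2 and THY1 were near absent. Summed over the list, DMSO libraries held from 53824 up to 57871 normalized counts, and PhenDC3 libraries from 36595 up to 36975. The part of this shift in the results was not tested. In bulk RNA, a change in each cell and a change in the mix of cells cannot be told apart.

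The genes were chosen by their known link to FOXO and by earlier results of this same comparison, namely the normalized counts and log2 changes of PhenDC3 against DMSO, so their values below are a description and are not tested. In the limma fit over all genes, 9 of the 10 were abundant enough to enter, of which 8 were higher with PhenDC3 and 1 lower at an adjusted p under 0.05. Nothing is read from that count, as 59.6% of all 16482 genes tested passed at the same threshold, 29.2% higher and 30.4% lower. In 8 of the 9 the 2 groups did not overlap, which held for 64.1% of all genes tested. By the adjusted p in the authors' deposited table, 8 of the 10 were past 0.05, where 39.0% of all genes with a value were.

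RefSeq promoter windows, from 250 bases before to 50 bases after an annotated start on GRCh38.p14, were found for 9 of the 10 genes, not for FBXO32. They are shown for KLHL24 and IRS2, the genes with the largest differences after FBXO32, and for PIK3IP1, which holds a forkhead motif. The KLHL24 window is chr3:183635373-183635672 on the plus strand, and that of IRS2 chr13:109786534-109786833 on the minus strand. The PIK3IP1 window shown, the one with the forkhead motif, is chr22:31292439-31292738 on the minus strand. Capitals mark matches on either strand to the forkhead motif GTAAACA or the insulin response sequence CAAAACA, and the stretch GTCACATGTT that KLHL24 and IRS2 share.
KLHL24: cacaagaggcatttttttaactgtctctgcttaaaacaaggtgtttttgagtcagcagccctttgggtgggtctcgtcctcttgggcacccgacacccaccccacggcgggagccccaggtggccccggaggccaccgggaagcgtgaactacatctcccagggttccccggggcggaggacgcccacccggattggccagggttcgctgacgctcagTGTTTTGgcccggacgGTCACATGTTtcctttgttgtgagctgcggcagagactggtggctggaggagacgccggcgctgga
IRS2: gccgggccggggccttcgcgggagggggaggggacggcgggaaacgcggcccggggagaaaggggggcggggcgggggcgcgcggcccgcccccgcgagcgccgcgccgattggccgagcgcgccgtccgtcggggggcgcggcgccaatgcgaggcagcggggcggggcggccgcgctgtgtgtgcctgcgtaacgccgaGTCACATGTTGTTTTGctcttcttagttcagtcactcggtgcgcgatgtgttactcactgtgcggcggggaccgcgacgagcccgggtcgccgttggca
PIK3IP1: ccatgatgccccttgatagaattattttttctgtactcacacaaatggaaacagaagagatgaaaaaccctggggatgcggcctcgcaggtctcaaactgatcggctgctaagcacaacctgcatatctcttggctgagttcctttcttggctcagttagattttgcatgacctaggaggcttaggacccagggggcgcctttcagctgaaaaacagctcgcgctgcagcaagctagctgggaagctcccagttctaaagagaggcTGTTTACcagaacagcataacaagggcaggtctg

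In KLHL24 and IRS2 the match to CAAAACA, read as TGTTTTG, began 32 and 40 bases before the start, and 4.92% of all 35116 windows held this motif. The forkhead motif GTAAACA was found in the shown PIK3IP1 window and in that of FOXO4, in both after the start, against 3.42% of all windows. The other PIK3IP1 window, chr22:31292485-31292784 for another annotated start, holds no such match. The shared 10 bases GTCACATGTT were the longest run common to the KLHL24 and IRS2 windows as printed. They began 16 bases before the start of KLHL24 and 49 before that of IRS2, where their last base overlaps the insulin response match. This stretch, found by comparing these sequences and not sought beforehand, was in 21 windows, or 0.0598%. A G quadruplex motif, here 4 stretches of at least 3 G, separated by 1 to 7 bases, on either strand, was present for FOXO1, FOXO3, IRS2 and INSR. Counted by window, it was in 6 of the 14 windows of the 9 genes and in 25.0% of all windows. Several of these 6 windows belong to FOXO3 alone, and some of those share bases, so they are not independent counts. These matches describe the letters in short windows only.

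Of the FOXO factors followed, FOXO3 rose most with PhenDC3, while the rises of FOXO1 and FOXO4 were smaller. The groups overlapped for FOXO4. FOXO3 (ENSG00000118689, chromosome 6) had 416, 425 and 354 normalized counts in DMSO replicates 1, 2 and 3 and 667, 655 and 631 in the PhenDC3 libraries. The groups did not overlap, and the mean was 1.63-fold higher, with a log2 change of 0.71 (SE 0.08). DMSO replicate 3 was the lowest library, and without it the log2 change was 0.63. FOXO3 has a near-identical processed pseudogene, FOXO3B, which stood at 16.0 normalized counts in DMSO and 43.0 in PhenDC3. How reads were divided between the copies is uncertain.

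FOXO1 (ENSG00000150907, chromosome 13) had 219, 232 and 202 normalized counts in DMSO and 266, 313 and 293 in PhenDC3. Its lowest PhenDC3 library lay above its highest DMSO library, and its mean was 1.34-fold higher (log2 change 0.41, SE 0.10, and 0.36 without DMSO replicate 3). FOXO4 (ENSG00000184481, X chromosome) was the least abundant of the FOXO factors followed, at 78.6, 60.3 and 60.0 normalized counts in DMSO and 93.5, 77.4 and 94.5 in PhenDC3. PhenDC3 replicate 2 fell below DMSO replicate 1, so the groups overlapped. Its log2 change of 0.42 (SE 0.15) was 0.35 without DMSO replicate 2 or without DMSO replicate 3, 0.37 without PhenDC3 replicate 1 and 0.37 without PhenDC3 replicate 3. In each of these FOXO4 no longer passed the threshold, nor did it in the authors' deposited table. FOXO6, the remaining family member, differed in direction and fell from 19.1 ± 1.24 to 7.91 ± 1.12 normalized counts (SD, n = 3, limma, log2 change -1.18, adjusted p = 0.00181).

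FBXO32 (ENSG00000156804, chromosome 8) had the largest difference of the 10 genes. Its DMSO libraries held 149, 152 and 166 normalized counts, and its PhenDC3 libraries 2201, 2112 and 2150. The libraries of each group lay close together and far from the other group, with means of 156 ± 9.25 and 2155 ± 44.6 (SD, n = 3). The mean was 13.8-fold higher, and the log2 change of 3.78 (SE 0.08) was the 68th largest rise of the 16482 genes tested. DMSO replicate 3, the library with muscle transcripts, had the highest FBXO32 value of its group, and without it the log2 change was 3.83. TRIM63, the other well-known ubiquitin ligase of muscle wasting, had 0 reads in all 3 DMSO libraries and 2, 4 and 2 in the PhenDC3 libraries, below the minimum mean of the main fit. It was called higher in limma with no such minimum (adjusted p = 0.00312), in DESeq2 on the recovered reads (adjusted p = 0.0136) and in the authors' deposited table (adjusted p = 0.0145).

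KLHL24 (ENSG00000114796, chromosome 3) encodes a kelch-like adaptor that brings substrates to a cullin ubiquitin ligase. It stood at 409, 412 and 343 normalized counts in DMSO and at 1593, 1691 and 1649 in PhenDC3. Every PhenDC3 library was far above every DMSO library, the mean being 4.23-fold higher (log2 change 2.08, SE 0.08). It was 2.00 on the log2 scale without DMSO replicate 3, the lowest library.

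**Figure D1:**
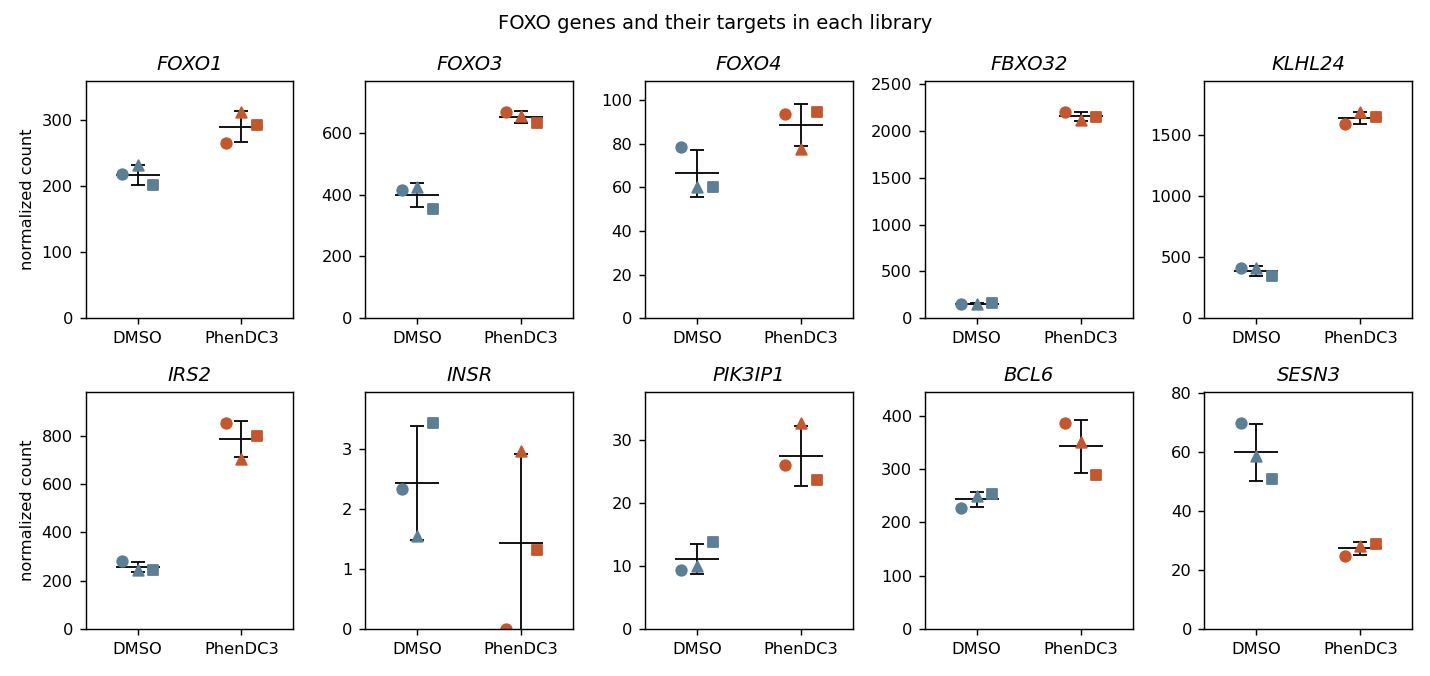
Normalized counts of the 10 genes in each library, on linear axes that start at 0 and differ between panels. Points are libraries (circle, triangle and square for replicates 1, 2 and 3), bars the mean with SD, which for INSR with PhenDC3 runs below the axis. FBXO32, KLHL24 and IRS2 show wide gaps between the groups, FOXO4 and INSR overlap, and SESN3 is the only gene of the tested 9 that is lower with PhenDC3.

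Among the genes that act on PI3 kinase signalling, IRS2 and PIK3IP1 were higher with PhenDC3, while INSR was too low to compare. IRS2 (ENSG00000185950, chromosome 13), the adaptor that links insulin and IGF receptors to PI3 kinase, had 279, 245 and 245 normalized counts in DMSO and 854, 706 and 798 in PhenDC3. The groups were well apart, and the mean was 3.06-fold higher (log2 change 1.61, SE 0.09, and 1.58 without DMSO replicate 3). INSR (ENSG00000171105, chromosome 19), the insulin receptor, was nearly absent. Its libraries held 3, 2 and 5 reads in DMSO and 0, 2 and 1 in PhenDC3, so a difference was not detectable at this depth. PIK3IP1 (ENSG00000100100, chromosome 22), a membrane protein that inhibits PI3 kinase, was low as well, at 9.34, 10.1 and 13.8 normalized counts in DMSO and 26.0, 32.8 and 23.6 in PhenDC3. Its groups did not overlap, and the mean was 2.48-fold higher (log2 change 1.24, SE 0.27, and 1.40 without DMSO replicate 3). The wide error goes with 45 reads in the DMSO libraries together and 62 in the PhenDC3 libraries.

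BCL6 (ENSG00000113916, chromosome 3), a transcriptional repressor, had 227, 249 and 254 normalized counts in DMSO and 387, 351 and 289 in PhenDC3. The PhenDC3 libraries spread more widely than the DMSO libraries but stayed above them, with a mean 1.41-fold higher (log2 change 0.48, SE 0.10, and 0.51 without DMSO replicate 3). SESN3 (ENSG00000149212, chromosome 11), a sestrin that dampens mTORC1 signalling, went the other way. It fell from 70.0, 58.8 and 51.0 normalized counts in DMSO to 24.9, 28.3 and 28.9 in PhenDC3, 0.456 of its DMSO level (log2 change -1.10, SE 0.19, and -1.20 without DMSO replicate 3). Only 5.34% of tested genes had a change at or below that of SESN3. Exons of PIK3IP1, BCL6, SESN3 and IRS2 overlap annotated antisense genes by 36 to 318 bases, and FOXO1 shares 269 exonic bases with LINC00598 on its own strand. The sources used here do not state how the counting treated strand, so reads of these stretches cannot be assigned with certainty. PIK3IP1-AS1 itself was at 3.11 normalized counts or less in every library.

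**Figure D2:**
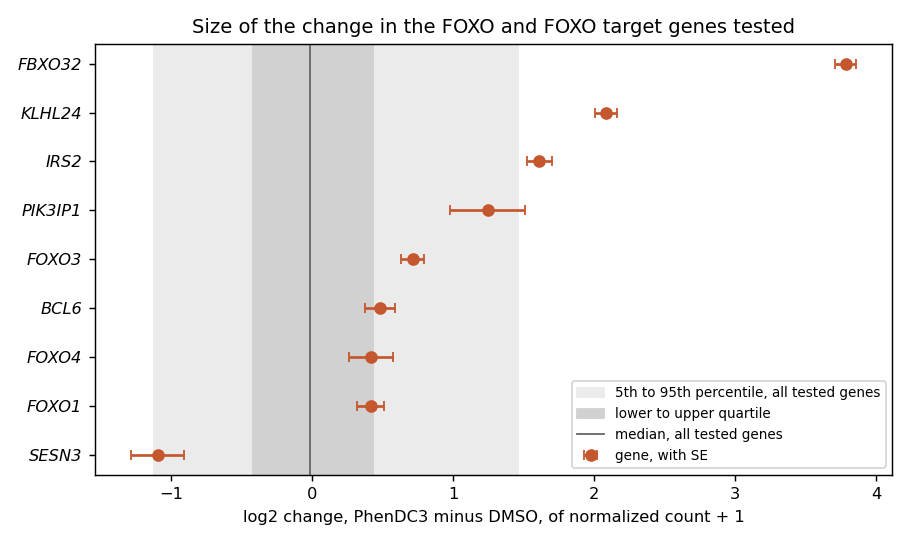
Log2 change of the normalized count plus 1, PhenDC3 minus DMSO, with its standard error, for the 9 genes tested, over the spread of all 16482 tested genes (grey bands, 5th to 95th percentile and lower to upper quartile). FBXO32, KLHL24 and IRS2 lie above the 95th percentile, at 1.46, while FOXO1 and FOXO4 lie inside the inner band, whose upper edge is 0.43.

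Levels were compared between genes per kilobase of annotated exon, using GENCODE release 29 lengths, which may differ from those of the annotation used for counting. In DMSO the order of mean normalized counts per kilobase was FOXO3 (51.6), KLHL24 (44.9), BCL6 (41.0), FOXO1 (34.9), IRS2 (31.5), FBXO32 (21.1), FOXO4 (19.2), SESN3 (5.67), PIK3IP1 (2.91) and INSR (0.234). Libraries of neighbours in this order overlapped for FOXO3 and KLHL24, for KLHL24 and BCL6, for FOXO1 and IRS2, and for FBXO32 and FOXO4. With PhenDC3, FBXO32 came first at 291 per kilobase, followed by KLHL24 at 190, IRS2 at 96.6 and FOXO3 at 84.3. Next came BCL6 at 57.7 and FOXO1 at 46.6, which overlapped, FOXO4 at 25.7, PIK3IP1 at 7.22, SESN3 at 2.59 and INSR at 0.137. On this scale FBXO32 thus moved from sixth to first place, and PIK3IP1 and SESN3 changed places.

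**Figure D3:**
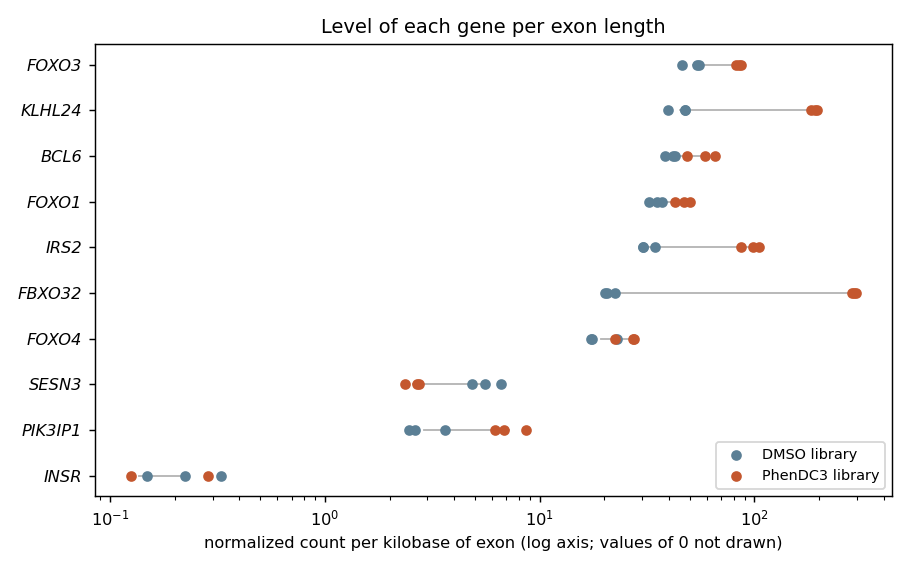
Normalized count per kilobase of exon of the 10 genes, ordered by their DMSO mean, on a log axis. Points are libraries and grey lines join the group means. FBXO32 spans from 21.1 to 291 per kilobase between the group means, while INSR stays below 1 in every library, with 1 PhenDC3 library at 0 not drawn.

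Further lists, 5 in number, held other genes described as FOXO targets, taken from general knowledge but drawn up with earlier results of these data known, so their counts are a description. They named 55 genes, of which 47 were found among the deposited rows and 45 were tested. Not found were PDK4, PCK1, G6PC, IGFBP1, TXNIP, SELENOP, CDKN2B and FASLG. Of the 45 tested genes 28 rose and 12 fell, against the background shares of 29.2% and 30.4%. Their median log2 change was 0.62, where that of all tested genes was -0.02. Some of these genes also answer to other regulators, so the lists are not specific to FOXO.

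Autophagy and atrophy targets had the highest median change, at 1.01 on the log2 scale, with 8 of 10 tested genes higher and none lower. Of all tested genes 29.2% were higher and 30.4% lower. GABARAPL1, an autophagosome protein, rose from 135 ± 9.21 to 702 ± 14.7 normalized counts (SD, n = 3, limma, adjusted p = 1.44e-14). ULK1, the kinase that starts autophagy, rose 2.66-fold, MAP1LC3B 2.65-fold and ATG12 2.08-fold. FBXO30, which like FBXO32 is an F-box protein of muscle wasting, rose 2.07-fold. BECN1 and PIK3C3, core parts of the autophagy lipid kinase complex, had log2 changes of 0.07 and 0.04 and did not pass.

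Growth arrest targets were higher in 11 of 14 cases and lower in 2, against background shares of 29.2% and 30.4%. Their median log2 change was 0.67. GADD45B, a stress-induced growth arrest gene, rose from 303 ± 40.9 to 1091 ± 91.5 normalized counts (SD, n = 3, limma, adjusted p = 1.35e-12). CCNG2, an atypical cyclin linked to cell cycle exit and widely used as a FOXO readout, rose 2.07-fold. HBP1, a transcriptional repressor, rose 2.07-fold, and CITED2, a transcriptional coregulator, 1.81-fold. The cyclin-dependent kinase inhibitors divided: CDKN1A rose, while CDKN1B, a classical FOXO target, fell to 0.442 of its DMSO level and CDKN2D to 0.483.

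Of 9 tested oxidative and nutrient stress targets 4 rose and 5 fell, with a median log2 change of -0.23. The background shares were 29.2% higher and 30.4% lower. SOD2, the mitochondrial superoxide dismutase, rose 3.28-fold (limma, adjusted p = 1.44e-14), RRAGD, a GTPase that signals to mTORC1, 2.78-fold, SESN2 2.71-fold and PINK1 1.83-fold. Catalase, CAT, fell to 0.727 and the peroxidase PRDX3 to 0.766 of the DMSO level. The sestrins therefore differed among themselves, as SESN1 fell to 0.702, in the direction of SESN3 and opposite to SESN2.

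Cell death targets gave 2 rises and 2 falls among 5 tested genes, against background shares of 29.2% and 30.4%. TNFSF10 had 1 read in each DMSO library and 2, 3 and 3 in the PhenDC3 libraries, below the minimum mean of the main fit. With no such minimum, 3 cell death targets were called higher and 1 lower, where DESeq2 on the recovered reads gave 2 and 1. BBC3, which encodes PUMA, rose 1.71-fold and TRADD 1.73-fold, while BNIP3 fell to 0.504 of its DMSO level (limma, adjusted p = 2.6e-10). PMAIP1 fell to 0.880, and its call was lost without any of DMSO replicate 1, DMSO replicate 2, PhenDC3 replicate 1 or PhenDC3 replicate 3, with log2 changes of -0.17, -0.16, -0.17 and -0.16. BCL2L11, which encodes BIM and is among the best-known FOXO targets, stood at 211 and 229 normalized counts and did not pass (log2 change 0.12, SE 0.10). Metabolic targets were 3 higher and 3 lower of 7 tested, against the same background shares. PNPLA2, the triglyceride lipase, rose 1.78-fold, TRIB1 1.80-fold and GLUL 1.30-fold. ERBB3 fell from 12.2 ± 0.40 to 5.11 ± 2.07 normalized counts (SD, n = 3), a call that the authors' deposited table does not share (log2 change -1.23, adjusted p = 0.131).

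Of 4 genes that FOXO factors are described to repress, CCND1 and ID1 were higher, at 1.12-fold and 1.19-fold, PPARG was lower, at 0.809 of its DMSO level, and CCND2 did not pass. With TMM scaling in place of the authors' size factors, CCND1 (log2 change 0.12, adjusted p = 0.0740) and ID1 (0.21, adjusted p = 0.0793) were not called, while PPARG (-0.34) and CCND2 (-1.12) were called lower. The calls of the main fit were marginal, with adjusted p values in limma of 0.0185, 0.0351 and 0.0464. The PPARG log2 change of -0.30 became -0.20 without DMSO replicate 3, -0.30 without DMSO replicate 2 and -0.21 without PhenDC3 replicate 1, and its call was lost each time. That of ID1, 0.26, became 0.19 without DMSO replicate 1, 0.20 without DMSO replicate 2, 0.24 without PhenDC3 replicate 1 and 0.17 without PhenDC3 replicate 3, again without a call. CCND1, at 0.16, was not called without DMSO replicate 2 (0.14), PhenDC3 replicate 2 (0.15) or PhenDC3 replicate 3 (0.16).

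Upstream, 10 of 27 tested genes of insulin and PI3 kinase signalling rose and 6 fell, against background shares of 29.2% and 30.4%, with a median log2 change of 0.11. INPPL1, the SHIP2 phosphatase that removes the lipid messenger of PI3 kinase, rose from 1255 ± 22.5 to 2495 ± 140 normalized counts (SD, n = 3, limma, adjusted p = 5.69e-11). PDPK1, which activates AKT, rose 1.75-fold, and PHLPP2, which inactivates it, 1.71-fold. PIK3R3, a regulatory subunit of PI3 kinase, fell to 0.313 of its DMSO level. AKT1 and AKT2 did not pass, with log2 changes of -0.02 and -0.11. IGF1R, the IGF receptor, fell from 625 to 543 normalized counts (limma, adjusted p = 0.0397), but its groups overlapped. The adaptor IRS1 rose from 929 to 1135 (limma, adjusted p = 0.00309).

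Of 27 tested genes for proteins that modify or bind FOXO factors, 10 were higher and 9 lower, against background shares of 29.2% and 30.4%. SKP2, an F-box protein that targets FOXO1 for degradation, fell to 0.310 of its DMSO level (limma, adjusted p = 4.95e-13), and CDK2, which can phosphorylate FOXO1, to 0.487. SIRT1, a deacetylase that acts on FOXO proteins, rose 2.42-fold, and the acetyltransferase genes CREBBP and EP300 rose 2.19-fold and 2.35-fold. Of the 7 genes for 14-3-3 proteins, grouped after their values were seen, 5 fell and none rose, where 30.4% of all tested genes fell. YWHAH fell most, to 0.636 of its DMSO level, and the uncalled SFN stood 1.41-fold higher.

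The partners of FBXO32 in its ubiquitin ligase did not rise with it. Of 8 tested genes of the SCF ligase, its regulators, an FBXO32 substrate and related F-box genes, 4 fell and none rose, where 30.4% of all tested genes fell and 29.2% rose. SKP1 and CUL1, which with RBX1 form the core of the ligase, had log2 changes of -0.07 and 0.09 and did not pass. CAND1, the exchange factor of cullin ligases, fell to 0.723 and COPS5 to 0.770 of the DMSO level. EIF3F, a translation factor known as an FBXO32 substrate, fell to 0.851, a call that was lost without PhenDC3 replicate 2 (log2 change -0.20 in place of -0.23). FBXO25, the closest relative of FBXO32, fell to 0.658 (limma, adjusted p = 8.42e-05).

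**Figure D4:**
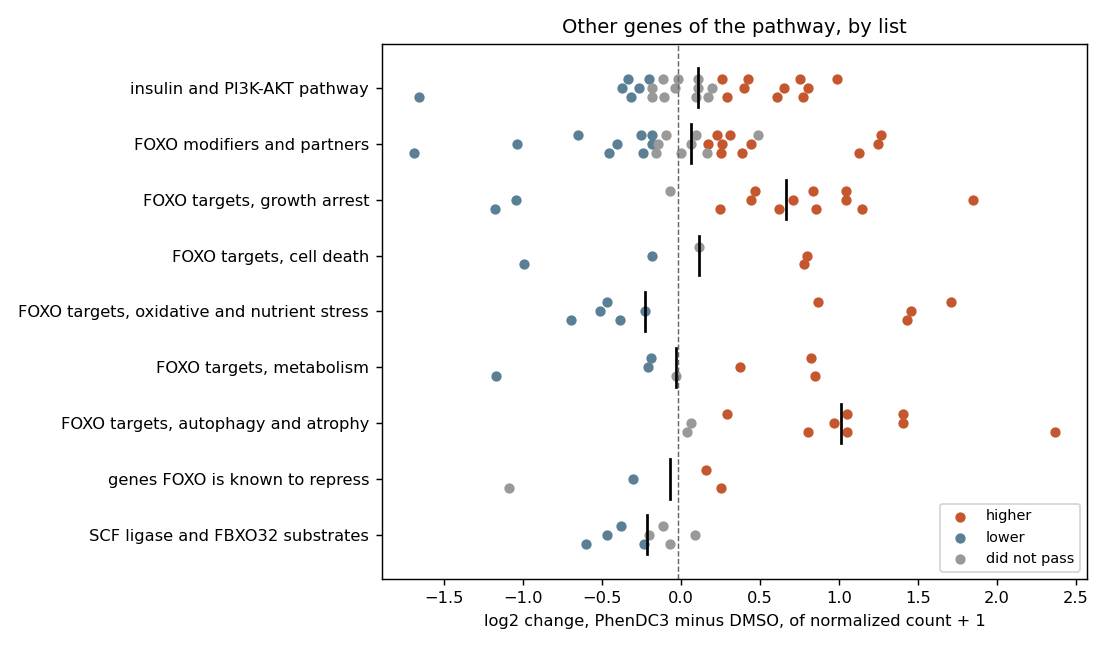
Log2 change of each tested gene in the 9 lists of other pathway genes, coloured by its call in limma. Black bars are list medians and the dashed line is the median of all tested genes, -0.02. The autophagy and atrophy list and the growth arrest list have the highest medians, at 1.01 and 0.67, and the list of SCF ligase genes has no gene called higher.

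By profile over the 6 libraries, the genes nearest to FBXO32 were IL24, SQSTM1, NMRAL2P, OSGIN1 and GPR132, out of 10425 candidates with a symbol and a mean of 50 or more. The measure was the root mean square distance of centred log2 values, which ran from 0.05 for IL24 to 0.17 for GPR132. IL24, a cytokine, stood at 224, 232 and 264 normalized counts in DMSO and at 3090, 3168 and 3326 in PhenDC3. With 2 groups of 3 libraries such likeness mostly reflects a similar size of difference between the groups.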

How the data were processed

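Poly(A) RNA of 6 HT-1080 libraries was measured by sequencing, 3 per group. Listed without roles in the submitters' processing notes are hg19, STAR 2.7, featureCounts, DESeq2 1.18.1, TopHat2 2.0.11, Cuffdiff, Cufflinks 2.2.1 and CASAVA. The deposited per-library values are signal: gene read counts that the authors scaled by a size factor. The values themselves show this, 100% being whole multiples of the smallest value above 0 (relative tolerance 1e-06). The authors' deposited log2 fold change and adjusted p-value were used as an alternative. The main test was limma 3.58.1 (R 4.3.3) with a variance trend on log2(value + 1), over genes with a mean of 5 or more, Benjamini-Hochberg adjusted over all of them, threshold 0.05. It was tested on simulated data, in which far fewer genes changed than were called here. The pseudocount lowers fold changes of low genes. The 10 genes and all lists were chosen with earlier results of these data known. Named genes are the 10, up to 4 called genes per list, by adjusted p, and the 5 profiles nearest to FBXO32. Other genes of the lists, among them FOXO6 and FOXO3B, were picked for naming with their values in view. Some list genes were not analysed here. Missing symbols were completed from a table of gene names, 22049 of 22925 rows then being named. Promoter windows are RefSeq's. Alternatives included DESeq2 1.42.0 and edgeR 4.0.16, run on reads recovered from the values. Tables and figures were made in Python 3.11.15 with pandas 2.3.3, numpy 2.4.6 and matplotlib 3.10.9.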

Additional observations from a re-analysis of the deposited data

How the results depend on the processing

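The count of genes called stayed within 1.5 times of 9818 under every alternative, from 8058 at an adjusted p under 0.01 to 10454 with no filter, and from 8965 to 9564 with 1 library left out. Of the 10 genes followed, 8 to 9 were called in each, FOXO4 being lost in some fits and PIK3IP1 untested at a minimum mean of 20. For the genes named by rule, with FOXO6 and FOXO3B added, 287 of 306 values kept their call and sign with 1 library left out. Under other settings 581 of 609 did, and no value changed sign in either. Of the genes FOXO is known to repress, 3 were called in the main fit, 0 with no variance trend, 1 with DESeq2, 1 in the authors' deposited table, 0 at a threshold of 0.01, and 1 to 2 with 1 library left out. Called metabolic targets numbered 3 at that threshold in place of 6. Replicate numbers gave little sign of pairing, as same-numbered residuals correlated at 0.008, 0.071 and 0.027. A replicate block gave 10155 called genes, among them 9 of the 10 followed, and the list counts stayed within 1.5 times. TMM scaling put the median log2 change of tested genes at -0.06. There, 0 genes of those FOXO represses were called higher and 2 lower, against 2 and 1 in the main fit. INSR had too few reads to compare at this depth. TNFSF10 was below the minimum mean of the main fit, and with no minimum the cell death targets gave 3 called higher and 1 lower.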

Other observations

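The 10 bases shared by the KLHL24 and IRS2 promoter windows, a stretch found after those genes' values were known, lay in windows of 21 genes, of which 7 were tested. Among the 5 other than KLHL24 and IRS2, 2 rose and 1 fell, where 29.2% of all tested genes rose and 30.4% fell. FCMR rose from 11.2 to 31.9 normalized counts and DOK3 from 67.5 to 107 (limma, adjusted p = 4.16e-05 and 0.000957). CREBZF fell to 0.707 of its DMSO level, while PRPSAP2 and RABGAP1L did not pass, with log2 changes of -0.07 and 0.00. Of the skeletal muscle markers, MYH3, an embryonic myosin, was higher with PhenDC3, at 234, 217 and 197 normalized counts against 77.8, 82.0 and 94.5 in DMSO (limma, adjusted p = 8.35e-09). CKM had 1 read in each PhenDC3 library, and DES had 0, 0 and 3. ACTA1 did not pass, at 5.45, 3.09 and 48.3 normalized counts in DMSO and 2.37, 2.98 and 9.18 in PhenDC3. Of the 8 muscle markers listed 4 were found, MYOD1, MYOG, MYF5 and TNNT3 being absent from the deposited rows.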
